A study of Mus musculus with 48 samples.

Results

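Total RNA of the mouse cerebral cortex was compared between 4 mice aged 18 months (18m) and 4 mice aged 5 months (5m). The libraries were made from the input of a sucrose cushion experiment, that is from cortex homogenate (TH) before ribosomes were pelleted, which is called input_TH here, and n is 4 mice per age throughout. They were chosen by fraction and age alone and make up 8 of the 48 libraries of the series, which also holds the ribosome pellets of the same homogenates (SC_TH), synaptosome input (input_SYN), synaptosome ribosome pellets (SC_SYN) and mice aged 3 weeks (3w) for each. All mice were wild-type males of the strain C57BL/6JRj, and no treatment is named. For the 5m group the labels write 6 months, whereas the protocol and the methods of the study have 5 months, which is used here, and the protocol writes 18/19 months for the oldest mice. Each library is labelled with 1 mouse, numbered 191 to 194 at 5m and 195 to 198 at 18m, and the age groups therefore hold different animals.

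Cortex homogenate holds RNA of every cell type in the tissue, from neurons and glia to vessels and blood, so that a lower level can come from fewer cells of a type or from less RNA per cell, which cannot be told apart here. Immediate-early genes are transcribed within minutes of neuronal activity and fall back quickly, and glucocorticoid-responsive genes follow the stress hormone corticosterone. The GC content of a transcript, the share of its exonic bases that are G or C, is known to affect how well it is recovered when libraries are fragmented and amplified. Each change was therefore measured as sequenced and again after the trend with GC content had been taken out of every library.

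The 8 libraries held 9699909 to 11909098 counted reads and no age difference in depth was detected (exact permutation test, two-sided p = 0.71, n = 4 against 4). Mice of the same age differed by 1.98 to 11.6 times the variance of counting alone (chi-square per gene over 12 pairs), and no pair agreed within sampling noise. Markers of the cortex were present in every library. Slc17a7, the vesicular glutamate transporter of cortical excitatory neurons, lay between 866 and 1187 CPM (counts scaled to a common library size by trimmed means, TMM), and Tbr1, a transcription factor of cortical projection neurons, lay between 94.3 and 128 CPM with a log2 fold change of 0.06. Neurod6, another gene of these neurons, had a log2 fold change of -0.11 (adjusted p = 0.37).

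A pair of libraries stood apart. The 5m mouse 191 carried more RNA of vessels, meninges and choroid plexus than the other mice of its age. Acta2, the actin of smooth muscle, stood at 92.6, 7.22, 12.1 and 10.2 CPM in the 5m mice and at 11.5, 5.92, 6.03 and 14.1 CPM in the 18m mice. Ttr, the transthyretin of choroid plexus, stood at 969, 119, 31.6 and 38.4 CPM at 5m and at 1539, 75.9, 111 and 117 CPM at 18m, so that mouse 191 and the 18m mouse 195 both held far more than any other. Folr1, a second choroid plexus gene, showed the same pair of mice, with 8.47, 1.12, 0.659 and 0.345 CPM at 5m and 9.88, 0.623, 1.31 and 1.49 CPM at 18m. The summed level of 27 fibroblast and matrix genes was 2172 CPM in mouse 191 against 839, 864 and 877 CPM in the others of 5m, and that of 23 endothelial genes was 1383 against 870.2, 897 and 893 CPM. Among markers of neighbouring regions, Drd1 and Adora2a of the striatum, Prkcd of the thalamus and Prox1 of the dentate gyrus had log2 fold changes of 0.07, 0.32, 0.22 and -0.02 with adjusted p-values of 0.82, 0.28, 0.65 and 0.92. None of 18 striatal or 17 thalamic and hippocampal genes passed with edgeR and TMM scaling, where 5 and 2 had an unadjusted p below 0.05, and 1 of each passed with DESeq2. Without mouse 195, 5 striatal genes rose, and 3 rose without a filter on low counts, while 1 rose without mouse 194 or 197. With scaling by library size or a minimum of 10 counts in every library 1 thalamic or hippocampal gene fell. Hbb-bs, the beta globin of blood, had a log2 fold change of 0.36 (adjusted p = 0.25).

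**Figure D1:**
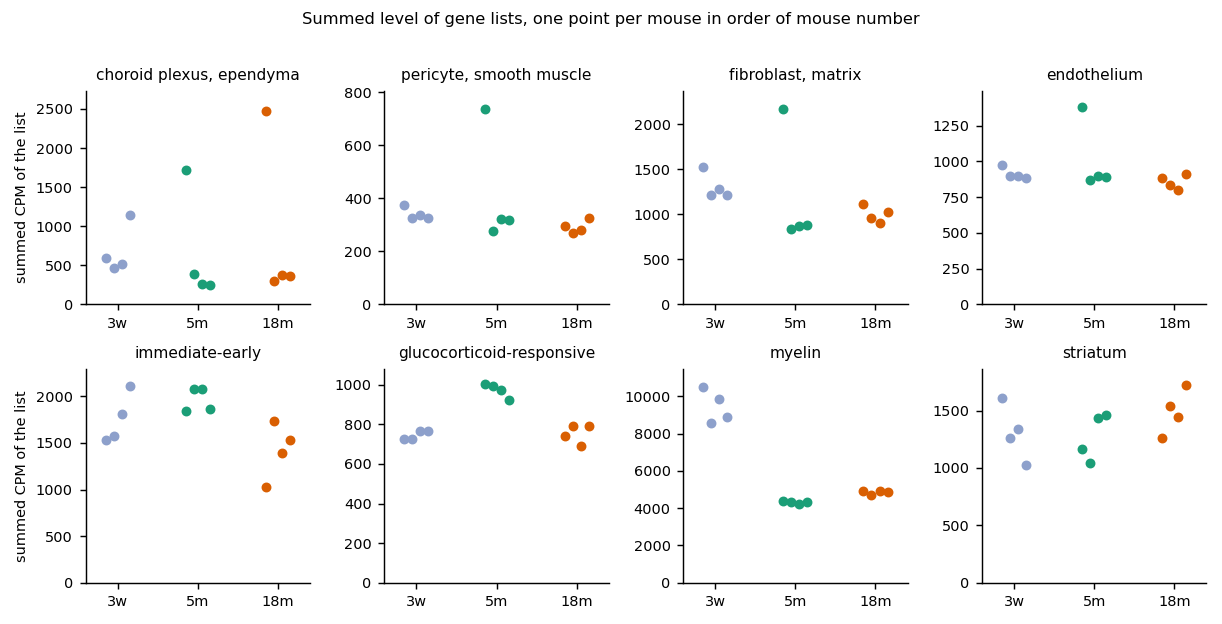
Summed CPM of 8 gene lists (vertical axis) in each of the 12 input_TH mice, grouped by age on the horizontal axis, with 1 point per mouse. Mouse 191 is the highest 5m point in the choroid plexus, smooth muscle, fibroblast and endothelial panels, mouse 195 the highest 18m point in the choroid plexus panel and the lowest in the immediate-early panel, and the 5m and 18m points do not overlap for immediate-early, glucocorticoid-responsive and myelin genes.

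Of 18078 genes tested, 2808 differed between 18m and 5m at an adjusted p below 0.05 (edgeR's quasi-likelihood test, Benjamini-Hochberg adjustment over all genes), which is 15.5% of all genes, with 1479 higher and 1329 lower at 18m (8.18% and 7.35%). Scaling by library size in place of trimmed means gave 3059 genes and moved the share of these that was higher from 52.7% to 32.6%, since the median of all genes moved from -0.00014 to -0.05 on the log2 scale. Without mouse 192, 193, 194, 196 or 198 the number that passed was 1715, 1800, 1655, 1404 and 1438. Most changes were small. The median size among the genes that passed was 0.33 on the log2 scale, 2366 changed by less than 1.5-fold and 86 changed by 2-fold or more, 34 of them higher and 52 lower.

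The direction of change followed the GC content of the genes. Genes that were higher at 18m had a median GC content of 55.9%, those that were lower 41.7% and all genes 48.8%. Among 1533 genes under 40% GC, 6 were higher and 452 lower, with a median log2 fold change of -0.29. Among 2683 genes over 56% GC the counts were the other way round, with 729 higher and 22 lower and a median of 0.19. Per library, the slope of log2 CPM on GC content, given per 10 percentage points of GC, was 0.00378, -0.121, -0.115 and -0.122 in the 5m mice and 0.0287, 0.212, 0.0478 and 0.217 in the 18m mice. The ages did not overlap, and the difference of 0.22 gave p = 0.029, the smallest that an exact two-sided permutation test of 4 against 4 mice can give. Mice 196 and 198 had the steepest slopes, and mouse 191 lay nearer to the 18m mice 195 and 197 than to the other 5m mice. The 3w libraries ranged from -0.086 to 0.055.

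The share of reads from the mitochondrial genome, whose genes are poor in GC, moved with the slope, at 2.31, 2.82, 3.06 and 3.11% in the 5m and 2.24, 1.31, 2.07 and 1.42% in the 18m mice. In the other fractions of the same mice the slopes of the ages overlapped. In SC_TH the slopes averaged 0.05 at 5m and 0.12 at 18m (exact permutation test, two-sided p = 0.26), and in input_SYN they averaged 0.094 and -0.071, with the lower mean at 18m (p = 0.34, n = 4 against 4 in each fraction). In SC_SYN they averaged 0.17 and -0.1, so that the difference of -0.28 was the opposite in sign to that in input_TH and larger in size (exact permutation test, two-sided p = 0.086). Whether the trend in input_TH arose in the tissue or in library preparation was not tested, and which library went on which sequencing run is not given in the sources used here.

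**Figure D2:**
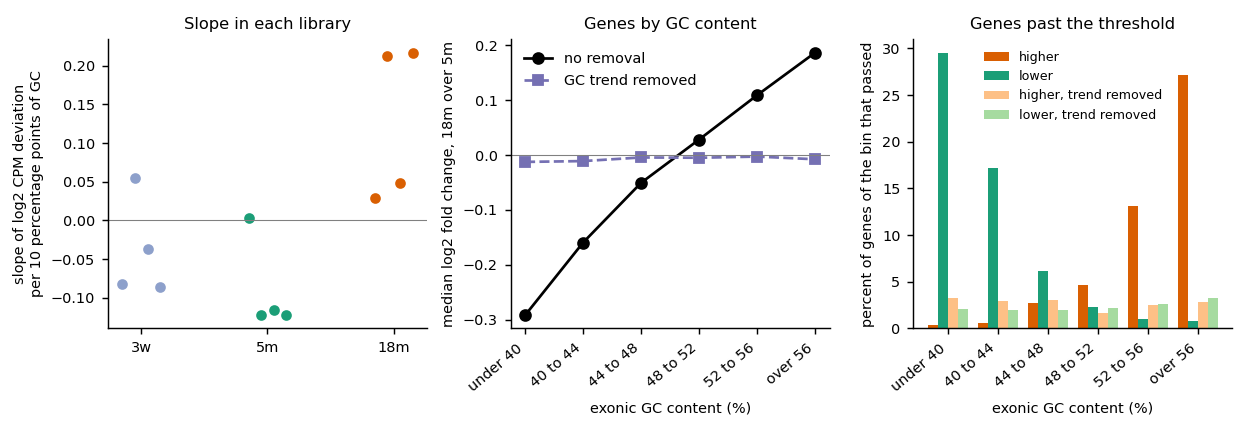
Left, slope of log2 CPM deviation per 10 percentage points of exonic GC content in each input_TH library by age, 1 point per mouse; middle, median log2 fold change of 18m over 5m in 6 bins of GC content before and after removal of the trend; right, percent of the genes of each bin that passed in each direction. The median runs from -0.29 to 0.19 without removal and stays between -0.013 and -0.0028 with it. The flat medians with removal follow from the procedure, which takes the GC trend out of each library, and are no separate result.

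With the trend removed, 894 of 17971 genes passed (4.97%), 473 higher and 421 lower (2.63% and 2.34%). Of these, 620 had also passed without removal and in the same direction, 334 higher and 286 lower. They are 22.1% of the genes that passed as sequenced and 69.4% of those that passed with the trend removed, and no gene passed both fits in opposite directions. Without mouse 192, 193, 194, 196, 197 or 198 the number that passed with the trend removed was 443, 479, 436, 488, 507 and 502. Without mouse 192, 193, 194, 196, 197 or 198 the number that passed both fits was 328, 351, 319, 345, 374 and 374. Of the 86 changes of 2-fold or more, 38 passed both fits. The kept genes had a median size of 0.44 on the log2 scale as sequenced. Their median GC content was 51.8% for those higher and 46.8% for those lower at 18m.

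**Figure D3:**
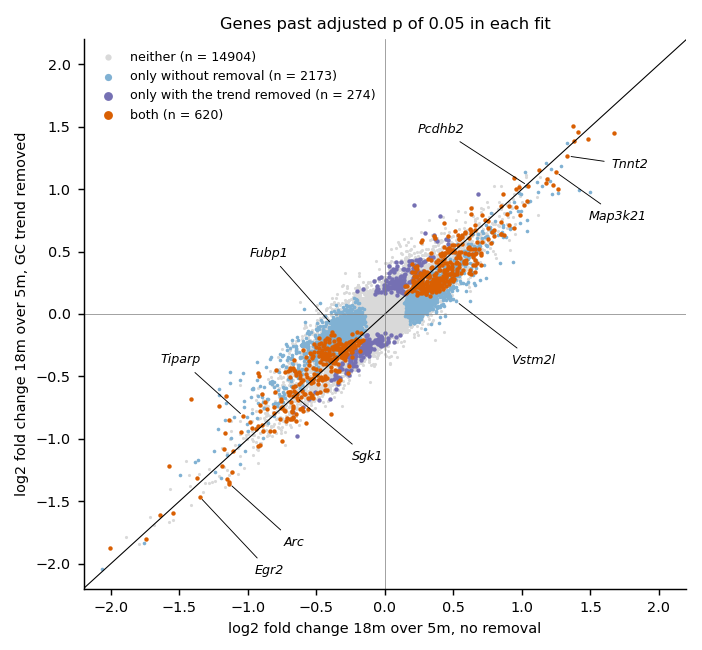
Log2 fold change of 18m over 5m for each gene as sequenced (horizontal axis) and with the GC trend removed (vertical axis), coloured by the fit in which the gene passed; 5 genes beyond 2.2 on either axis are not drawn, and the diagonal marks equal values. Of the 620 genes that passed both fits, some lie near the diagonal, such as Sgk1 and Pcdhb2, and others lie off it, such as Arc and Tiparp. Genes that passed only as sequenced lie closer to the horizontal axis, such as Vstm2l and Fubp1. They were defined by not passing with the trend removed, so their position is no separate result.

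Immediate-early genes were lower at 18m. Of 28 tested, 14 fell and none rose as sequenced, with a median log2 fold change of -0.44 for the list, and 16 fell and none rose with the trend removed (median -0.65). Among all genes tested 7.35% fell as sequenced and 2.34% with the trend removed, with medians of -0.00014 and -0.0063, and the counts of each list below are to be read against these shares and against the 8.18% and 2.63% that rose. The list is rich in GC, at a median of 55%, and among the 3403 genes with 52 to 56% GC, 445 rose and 33 fell as sequenced. Arc (chromosome 15, 74669083 to 74672570), an immediate-early gene of synaptic plasticity, stood at 255, 337, 320.2 and 250.6 CPM in the 5m mice and at 53.9, 182, 139 and 156 CPM in the 18m mice. Every 18m mouse lay below every 5m mouse and mouse 195 was the lowest, with a log2 fold change of -1.14 ± 0.26 (SE, adjusted p = 0.0091), and -1.36 (adjusted p = 0.0064) with the trend removed. Nr4a3 (chromosome 4, 48045153 to 48086447), an orphan nuclear receptor induced by activity, stood at 55.8, 62.1, 59.2 and 59.3 CPM at 5m and 27.1, 39.2, 35.9 and 38.6 CPM at 18m, again without overlap (log2 fold change -0.75 ± 0.11 SE, adjusted p = 0.0014).

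Tiparp (chromosome 3, 65528410 to 65555518), an ADP-ribosyltransferase that the aryl hydrocarbon receptor and neuronal activity induce, stood at 16.1, 17.6, 16.5 and 16.7 CPM at 5m and 7.76, 7.06, 8.13 and 9.53 CPM at 18m (log2 fold change -1.04 ± 0.13 SE, adjusted p = 0.00076, and -0.82, adjusted p = 0.0032 with the trend removed). Egr1, a zinc finger transcription factor, fell from 242 ± 23 to 160 ± 35.8 CPM (SD, n = 4 each; log2 fold change -0.60 ± 0.14 SE, adjusted p = 0.0096). Egr2 of the same family stood at 12.2, 12.5, 14.999 and 10.0 CPM at 5m and 0.970, 7.27, 5.07 and 6.38 CPM at 18m, and its log2 fold change of -1.35 ± 0.39 (SE, adjusted p = 0.028) did not pass when mouse 192, 193, 197 or 198 was left out. At 3w the mean levels were 206 CPM for Arc, 48.8 for Nr4a3, 11.9 for Tiparp and 208 for Egr1, each between the means of 5m and 18m. The number of members that passed became 7 without mouse 192 or 193, 8 without mouse 197 and 9 without mouse 195 as sequenced. After removal of the trend it became 9 without mouse 193 and 10 without mouse 198, and without mouse 195 or 197 as sequenced 1 of these rose.

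Glucocorticoid-responsive genes were lower at 18m too. Of 18 tested, 9 fell and none rose as sequenced (median log2 fold change -0.42), and 11 fell and none rose with the trend removed. Sgk1 (chromosome 10, 21882184 to 21999903), a kinase that the glucocorticoid receptor induces, stood at 95.5, 84.96, 85.6 and 88.1 CPM in the 5m mice and at 57.9, 64.0, 50.6 and 54.2 CPM in the 18m mice. Tsc22d3 (chromosome X, 140539528 to 140600659), which encodes the glucocorticoid-induced leucine zipper, stood at 74.5, 77.3, 65.6 and 71.9 CPM at 5m and 44.2, 53.0, 47.0 and 48.3 CPM at 18m. The ages did not overlap for either gene, and their log2 fold changes of -0.64 ± 0.07 (SE, adjusted p = 0.00015) and -0.59 ± 0.06 (SE, adjusted p = 0.00028) moved to -0.67 (adjusted p = 3.3e-05) and -0.64 (adjusted p = 3.3e-05) with the trend removed.

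Nfkbia, the inhibitor of NF-kappa-B, had 19.8, 15.4, 15.6 and 15.9 CPM at 5m and 10.6, 10.6, 8.66 and 11.8 CPM at 18m, with a log2 fold change of -0.68 ± 0.11 (SE, adjusted p = 0.0027). Sgk3, a kinase of the Sgk1 family, had a log2 fold change of -0.55 ± 0.11 (SE, adjusted p = 0.0052), and -0.38 (adjusted p = 0.037) with the trend removed. At 3w the summed level of the list was 726 to 766 CPM, against 925 to 1002 at 5m and 693 to 792 at 18m, so that the 5m mice stood above both other ages. The number of members that passed became 6 without mouse 197 with the trend removed.

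Promoters of 3 genes that fell are shown because they carry the motifs by which activity and glucocorticoids are known to induce genes of these groups. The windows run from 250 bases before to 50 bases after the annotated start, from RefSeq on GRCm38.p6, plus strand, and capitals mark TGACG, the core of the cAMP response element, on either strand, the CArG box bound by serum response factor, and the palindromic glucocorticoid response element, searched as AGAACA and TGTTCT with any 3 bases between them. The Nr4a3 window is chr4:48045055-48045354 and holds TGACG or its complement at 4 positions. The Egr2 window shown is chr10:67537680-67537979 and holds 2 copies and 1 CArG box. The Sgk1 window shown is chr10:21993640-21993939 and holds the glucocorticoid element 189 to 175 bases before its start. That start lies inside Sgk1, downstream of the gene start given above. Egr2 and Sgk1 have further windows, and the other windows of Sgk1 lack the element.
Nr4a3: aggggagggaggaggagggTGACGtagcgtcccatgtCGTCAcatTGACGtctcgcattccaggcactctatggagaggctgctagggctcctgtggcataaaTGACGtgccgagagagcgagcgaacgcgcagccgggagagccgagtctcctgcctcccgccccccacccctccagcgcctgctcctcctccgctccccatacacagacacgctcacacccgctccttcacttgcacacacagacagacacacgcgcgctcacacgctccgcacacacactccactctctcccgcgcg
Egr2: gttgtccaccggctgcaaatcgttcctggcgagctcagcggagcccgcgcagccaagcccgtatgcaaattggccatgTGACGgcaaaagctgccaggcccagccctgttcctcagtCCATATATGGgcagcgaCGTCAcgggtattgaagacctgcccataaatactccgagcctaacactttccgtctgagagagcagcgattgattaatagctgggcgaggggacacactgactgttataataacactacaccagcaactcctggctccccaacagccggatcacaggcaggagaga
Sgk1: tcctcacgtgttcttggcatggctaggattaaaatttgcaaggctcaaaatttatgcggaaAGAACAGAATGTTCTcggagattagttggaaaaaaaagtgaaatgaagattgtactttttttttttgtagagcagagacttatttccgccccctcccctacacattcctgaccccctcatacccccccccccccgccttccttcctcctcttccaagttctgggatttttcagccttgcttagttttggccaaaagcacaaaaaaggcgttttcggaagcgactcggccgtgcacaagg
TGACG was found in at least 1 window of 16 of 22 immediate-early genes that had a window (72.7%) and of 7 of the 11 that fell (63.6%), against 23% of 27025 genes with windows of the same length. The full palindrome TGACGTCA, which contains TGACG on both strands, was found in 3 of the list, in none of the 11 that fell and in 2.03% of all genes, and the CArG box in 1 of the list, Egr2, and in 1.81% of all. The glucocorticoid element was found in 1 of 16 glucocorticoid-responsive genes with a window, Sgk1, and in 3 genes of all. GGGCGG, another motif that was counted, was found in 17 of the 22 immediate-early genes (77.3%) and in 38.2% of all genes, so that TGACG was not alone in being frequent. These matches describe the letters in these windows only, and several genes have more than 1 window.

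Among 19 circadian clock genes, 4 fell and none rose, and 3 fell with the trend removed. Per1 and Per2, the period genes of the negative limb of the clock, had log2 fold changes of -0.56 ± 0.13 (SE, adjusted p = 0.011) and -0.54 ± 0.11 (SE, adjusted p = 0.0066), and Bhlhe40, a repressor within the clock, had -0.47 ± 0.09 (SE, adjusted p = 0.0042). The 5m and 18m mice did not overlap for Per1, at 177, 176, 221 and 153 and 88.9, 147, 129 and 129 CPM, nor for Bhlhe40, whereas 1 pair of mice overlapped for Per2. With the trend removed the changes were -0.76 (adjusted p = 0.0035), -0.66 (adjusted p = 0.0039) and -0.45 (adjusted p = 0.011). Per1 is also counted in both groups above, since activity and glucocorticoids induce it. The number of clock genes that passed became 8 without mouse 191 as sequenced. Once the trend was removed it became 5 without mouse 191. In other fits, 0 rose and 7 fell with scaling by library size as sequenced.

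Most of the listed genes of the mitochondrial genome fell as sequenced. Of 15 mitochondrially encoded genes, 13 fell and none rose as sequenced, with a median log2 fold change of -0.57, and 5 fell with the trend removed (median -0.26). Their median GC content was 36%. mt-Nd3, a subunit of complex I, stood at 119, 149, 158 and 153 CPM at 5m and 94.9, 60.1, 99.9 and 49.5 CPM at 18m, and its log2 fold change of -0.92 ± 0.18 (SE, adjusted p = 0.0054) became -0.47 (adjusted p = 0.014) with the trend removed. mt-Nd2 of the same complex went from -0.80 ± 0.17 (SE, adjusted p = 0.0072) to -0.45 (adjusted p = 0.024), mt-Atp8 of the ATP synthase, which overlaps mt-Atp6, from -1.16 ± 0.26 (SE, adjusted p = 0.0091) to -0.66 (adjusted p = 0.036), and the isoleucine tRNA gene mt-Ti from -1.42 ± 0.18 (SE, adjusted p = 0.00076) to -0.68 (adjusted p = 0.017). mt-Rnr2, the large mitochondrial ribosomal RNA, which rRNA depletion may remove to a varying degree, stood at 5446, 7393, 7959.6 and 9054 CPM at 5m and 5046, 2512, 5296 and 1789.5 CPM at 18m and did not pass with the trend removed (-0.70, adjusted p = 0.055). The 18m mice 196 and 198, those with the steepest GC slopes, had the lowest levels of these 5 genes. The mitochondrial tRNA genes mt-Tw and mt-Tq did not pass as sequenced, with log2 fold changes of -0.37 (adjusted p = 0.19) and 0.0074 (adjusted p = 0.99). The number of members that passed became 8 without mouse 198 as sequenced. In the fit without the trend it became 1 without mouse 193, 194, 196 or 198, 2 without mouse 192, 9 without mouse 195 and 12 without mouse 191, and without mouse 191 and with the trend removed 1 of these rose. Under other settings, 0 rose and 8 fell with DESeq2 and 0 rose and 13 fell with no filter on low counts with the trend removed.

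Of 75 nuclear genes of the respiratory chain, 26 rose and 1 fell as sequenced, with a median log2 fold change of 0.12, and 17 rose and none fell with the trend removed (median 0.08). Cox6a1 (chromosome 5, 115345642 to 115348981), a subunit of cytochrome c oxidase, stood at 139.9, 133, 132 and 131 CPM at 5m and 186, 241, 195 and 196 CPM at 18m, with a log2 fold change of 0.61 ± 0.08 (SE, adjusted p = 0.00076) that became 0.33 (adjusted p = 0.0035). Cox4i1 of the same complex had 0.40 ± 0.06 (SE, adjusted p = 0.0024), and 0.28 (adjusted p = 0.0046) with the trend removed. Ndufa8 of complex I had 45.2, 44.3, 44.9 and 43.1 CPM at 5m and 58.4, 65.7, 57.1 and 57.0 CPM at 18m (log2 fold change 0.42 ± 0.07 SE, adjusted p = 0.0024, and 0.30, adjusted p = 0.014 with the trend removed). All 18m mice lay above all 5m mice for each of these 3 subunits. The number that passed became 9 without mouse 192 or 196, 10 without mouse 193 or 198 and 11 without mouse 194 with the trend removed. In other fits, 11 rose and 0 fell with the fit of the 8 libraries alone with the trend removed.

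Some genes of the cytosolic ribosome rose. Of 82 tested, 23 rose and none fell as sequenced (median 0.08), and 11 rose and 1 fell with the trend removed (median 0.04). Rpl12, a protein of the large subunit, stood at 75.0, 64.2, 71.7 and 70.7 CPM at 5m and 87.2, 94.8, 88.6 and 89.3 CPM at 18m, with a log2 fold change of 0.35 ± 0.06 (SE, adjusted p = 0.003) that became 0.28 (adjusted p = 0.0076). Rps2 and Fau, of the small subunit, had 0.38 ± 0.07 (SE, adjusted p = 0.0045) and 0.47 ± 0.09 (SE, adjusted p = 0.0037), and 0.24 (adjusted p = 0.024) and 0.26 (adjusted p = 0.025) with the trend removed. Ribosomal proteins have many processed pseudogenes with near-identical sequence, so that their counts are uncertain. The number that passed became 15 without mouse 193 or 196 as sequenced. With the trend removed it became 1 without mouse 193, 2 without mouse 192 or 196, 4 without mouse 194 and 7 without mouse 197, and without mouse 195 and with the trend removed 6 of 14 fell. Under other settings, 6 rose and 0 fell with the fit of the 8 libraries alone with the trend removed.

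Among neuronal genes, several of interneurons rose with and without the trend. Of 24 interneuron genes, 6 rose and none fell as sequenced, and 6 rose and none fell with the trend removed, 4 of them in both fits. Sst (chromosome 16, 23889573 to 23890958), the peptide somatostatin, stood at 116, 107, 105 and 106 CPM at 5m and 143, 199.5, 145 and 160.4 CPM at 18m, with the highest level in mouse 196 and no overlap (log2 fold change 0.58 ± 0.09 SE, adjusted p = 0.0015, and 0.42, adjusted p = 0.0034 with the trend removed). Cck, the peptide cholecystokinin, which excitatory neurons also make, had 154, 176, 153 and 150.0 CPM at 5m and 194, 271, 210.2 and 209.7 CPM at 18m (log2 fold change 0.48 ± 0.10 SE, adjusted p = 0.0058, and 0.32, adjusted p = 0.039 with the trend removed). Pvalb, the calcium-binding parvalbumin of fast-spiking interneurons, had a log2 fold change of 0.44 ± 0.11 (SE, adjusted p = 0.018), which did not pass without mouse 193 or 196. Gad1, which makes GABA, had 0.19 ± 0.05 (SE, adjusted p = 0.026) and did not pass without mouse 191, 192, 196 or 198, nor with scaling by library size. Slc32a1, the vesicular GABA transporter, rose as sequenced (0.31 ± 0.08 SE, adjusted p = 0.018) and did not pass with the trend removed (0.05, adjusted p = 0.76). The number of interneuron genes that passed became 2 without mouse 196 and 3 without mouse 192 or 198 as sequenced. After removal of the trend it became 2 without mouse 194 or 196 and 3 without mouse 197. With scaling by library size 4 rose and 1 fell as sequenced, and 6 rose and none fell with the trend removed. In other fits, 3 rose and 0 fell with the fit of the 8 libraries alone with the trend removed.

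Annotated genes with ages that did not overlap and at least 50 counts on average in the higher group were ranked by p-value. Chga (chromosome 12, 102554969 to 102565028), which encodes chromogranin A of dense-core vesicles, had the smallest p-value with the trend removed among those that rose in both fits. It stood at 81.8, 82.0, 84.2 and 88.6 CPM at 5m and 119, 133, 117 and 134 CPM at 18m, with a log2 fold change of 0.58 ± 0.06 (SE, adjusted p = 0.00015) that became 0.41 (adjusted p = 0.00081) with the trend removed. Its 3w mean of 84.1 CPM lay at the 5m level. Slc17a7 rose by 0.25 on the log2 scale as sequenced (adjusted p = 0.017), but not without mouse 194, 196 or 198 and not with the trend removed (0.10, adjusted p = 0.28), and of 20 excitatory neuron genes 4 rose as sequenced and 1 with the trend removed. As sequenced, 2 rose without mouse 194, and 4 rose and 2 fell without mouse 191.

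Synaptic genes passed mostly as sequenced only. Of 75 tested, 17 rose and 7 fell, and with the trend removed 1 rose and none fell. The median of the list was 0.05 and turned to -0.0032 with scaling by library size, when 12 rose and 11 fell. Without mouse 191, 13 rose and 15 fell as sequenced. Ppp1r9b, which encodes the spine protein spinophilin and has 61.9% GC, stood at 920.2, 946, 927 and 929.7 CPM at 5m and 1114, 1345, 1145 and 1313 CPM at 18m, without overlap. Its log2 fold change of 0.40 ± 0.07 (SE, adjusted p = 0.0032) became 0.14 (adjusted p = 0.067). Lrrtm2, a synaptic adhesion protein with 38% GC, went the other way, from -0.50 ± 0.08 (SE, adjusted p = 0.0026) to -0.22 (adjusted p = 0.069). Hcn2, a pacemaker channel of dendrites, went from 0.39 ± 0.06 (SE, adjusted p = 0.0024) to 0.06 (adjusted p = 0.57). The number of synaptic genes that passed became 7 without mouse 196 or 198, 8 without mouse 194 and 12 without mouse 192 as sequenced. Once the trend was removed it became 2 without mouse 196, 5 without mouse 195 and 9 without mouse 191, and 8 of those without mouse 191 and with the trend removed fell. Under other settings, 11 rose and 4 fell with the fit of the 8 libraries alone as sequenced, and 5 rose and 1 fell with DESeq2, 4 rose and 1 fell with no filter on low counts and 2 rose and 0 fell with the fit of the 8 libraries alone with the trend removed.

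The genes with the smallest p-values among those that passed only as sequenced are listed with their GC content. Choosing them in this way favours GC contents at which the trend is large, so their position is no separate result. Those that rose were Vstm2l (69.2% GC), Begain (63.9% GC), Cep131 (61.5% GC), Kcnh2 (62.2% GC) and Jund (67.1% GC), with log2 fold changes of 0.52, 0.43, 0.47, 0.41 and 0.50 that shrank to 0.10, 0.13, 0.22, 0.14 and 0.12 once the trend was removed. Those that fell were Tra2b (38.7% GC), Fubp1 (37.4% GC), Krit1 (36.1% GC), Srsf3 (41% GC) and Smg1 (42.1% GC), with -0.46, -0.39, -0.43, -0.34 and -0.31 that shrank to -0.20, -0.08, -0.08, -0.16 and -0.16. Ages that did not overlap in CPM were a condition for naming these 10 genes, and 18.4% of all genes tested met it. Vstm2l, for example, stood at 47.7, 46.8, 47.7 and 48.5 CPM at 5m and 57.2, 72.9, 67.6 and 76.1 CPM at 18m, and Fubp1, a regulator of splicing and transcription, at 103, 112, 107 and 110.0 and 84.5, 80.3, 86.9 and 78.2 CPM. Tra2b and Srsf3 are splicing factors, and of 76 genes of that kind 15 fell and 5 rose as sequenced, while 1 fell and 4 rose with the trend removed. Hnrnph1, a further splicing regulator, went from -0.33 ± 0.05 (SE, adjusted p = 0.0024) to -0.01 (adjusted p = 0.94). The number of splicing factors that passed became 12 without mouse 198 as sequenced. In the fit without the trend it became 1 without mouse 192, 2 without mouse 193, 194, 196 or 198 and 8 without mouse 191. In other fits, 3 rose and 4 fell with no filter on low counts and 1 rose and 1 fell with the fit of the 8 libraries alone with the trend removed.

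Several myelin genes rose. Of 31 tested, 13 rose and 1 fell as sequenced (median 0.17), and 8 rose and none fell with the trend removed (median 0.19). Mag (chromosome 7, 30899176 to 30914873), the myelin-associated glycoprotein, stood at 96.99, 99.7, 100.3 and 105 CPM at 5m and 129, 137, 134 and 139.5 CPM at 18m, without overlap, with a log2 fold change of 0.42 ± 0.05 (SE, adjusted p = 0.00076) that became 0.29 (adjusted p = 0.0082). Hapln2, a link protein of the node of Ranvier, had 22.0, 27.7, 22.1 and 27.1 CPM at 5m and 33.4, 43.1, 33.9 and 38.3 CPM at 18m (log2 fold change 0.59 ± 0.10 SE, adjusted p = 0.0034). Qdpr, which recycles tetrahydrobiopterin, had 0.35 ± 0.06 (SE, adjusted p = 0.0027). These 3 genes passed with the trend removed. Mog, the myelin oligodendrocyte glycoprotein, did not pass, at 0.16 ± 0.07 (SE, adjusted p = 0.12).

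At 3w, when myelin is laid down, the summed level of the list was 8581 to 10489 CPM against 4211 to 4404 at 5m and 4722 to 4935 at 18m, so that the 18m level stayed below that at 3w. Of 16 genes of oligodendrocyte precursors, 3 rose and 1 fell as sequenced, and 2 rose and 1 fell with the trend removed. Sox10 and Olig1, transcription factors of the oligodendrocyte lineage as a whole, had log2 fold changes of 0.62 ± 0.08 (SE, adjusted p = 0.001) and 0.64 ± 0.09 (SE, adjusted p = 0.001), and 0.35 (adjusted p = 0.024) and 0.39 (adjusted p = 0.0047) with the trend removed. The number of myelin genes that passed became 5 without mouse 193, 196, 197 or 198 with the trend removed.

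Of 24 astrocyte genes, 5 rose and 2 fell as sequenced, and 4 rose and none fell with the trend removed; the list median of 0.03 turned to -0.02 with scaling by library size. Gfap, the intermediate filament of astrocytes, stood at 158, 146, 141 and 147 CPM at 5m and 191, 177, 178 and 202 CPM at 18m (log2 fold change 0.34 ± 0.06 SE, adjusted p = 0.0026, and 0.26, adjusted p = 0.014 with the trend removed). S100b, Sox9 and Fgfr3, which mark astrocytes, had 0.31 ± 0.06 (SE, adjusted p = 0.0052), 0.32 ± 0.07 (SE, adjusted p = 0.0059) and 0.43 ± 0.07 (SE, adjusted p = 0.0018) and all passed with the trend removed, although the end of S100b overlaps Dip2a on the other strand. Aqp4, the water channel of astrocyte endfeet, fell as sequenced (-0.39 ± 0.08 SE, adjusted p = 0.0062) and did not pass with the trend removed (-0.25, adjusted p = 0.055). Under other settings, 4 rose and 3 fell with DESeq2 and 4 rose and 4 fell with no filter on low counts with the trend removed. Of 17 genes of reactive astrocytes, 2 rose and 2 fell as sequenced, and 2 rose and none fell with the trend removed. The log2 fold change was positive for 4 and negative for 13 of them as sequenced. Their median was -0.30 and turned to 0.05 without mouse 191.

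Few microglial genes passed. Of 24 identity genes 1 rose and none fell as sequenced, below the shares of all genes, and 1 rose and 1 fell with the trend removed. The gene that rose was Trem2, a lipid receptor of microglia, at 7.53, 8.55, 7.75 and 7.95 CPM at 5m and 11.3, 12.8, 11.2 and 9.004 CPM at 18m (log2 fold change 0.48 ± 0.11 SE, adjusted p = 0.01, and 0.42, adjusted p = 0.037 with the trend removed). P2ry12, which marks homeostatic microglia, had -0.42 ± 0.15 (SE, adjusted p = 0.068) and Tmem119 had 0.26 ± 0.13 (SE, adjusted p = 0.18); neither passed, although P2ry12 did without mouse 191 and Tmem119 without mouse 195. The number of identity genes that passed became 3 without mouse 197, 4 without mouse 195 and 5 without mouse 191 as sequenced. With the trend removed it became 0 without mouse 191, 194, 195 or 196 and 1 without mouse 192, 193 or 197. In other fits, 1 rose and 2 fell with scaling by library size as sequenced, and 0 rose and 1 fell with DESeq2 and 0 rose and 0 fell with the fit of the 8 libraries alone with the trend removed. Of 41 complement, MHC and interferon genes 4 rose and 2 fell as sequenced, near the shares of all genes, and 2 rose and 1 fell with the trend removed. C4b (chromosome 17, 34728380 to 34743882), a complement component that astrocytes and oligodendrocytes make, stood at 54.9, 30.2, 33.05 and 31.6 CPM at 5m and 61.6, 59.7, 65.7 and 70.7 CPM at 18m. Mouse 191 was the highest of 5m and still below every 18m mouse, and the log2 fold change was 0.78 ± 0.15 (SE, adjusted p = 0.0041), and 0.65 (adjusted p = 0.015) with the trend removed. Its 3w mean was 15.4 CPM, so that its mean rose with each age. C4b and C4a are near-identical copies whose reads can be split between them. Irf9, of the interferon signalling complex, fell (-0.63 ± 0.11 SE, adjusted p = 0.003). The number of complement, MHC and interferon genes that passed became 3 without mouse 196 or 198 and 12 without mouse 191 as sequenced. After removal of the trend it became 1 without mouse 194 and 7 without mouse 191. Without mouse 191, 11 rose and 1 fell as sequenced, and the median of the list turned from -0.15 to 0.26. More fell than rose without mouse 192 (4 against 2) or 193 (3 against 2). Under other settings, 2 rose and 4 fell with scaling by library size and 3 rose and 4 fell with a minimum of 10 counts in every library as sequenced, and 2 rose and 4 fell with no filter on low counts with the trend removed.

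Vascular genes varied with the mouse. Of 23 endothelial genes, 5 fell and none rose as sequenced and 4 fell with the trend removed, but only 1 gene passed both fits. The number that passed became 0 without mouse 196, 1 without mouse 197 and 2 without mouse 198 as sequenced. Once the trend was removed it became 1 without mouse 197 and 2 without mouse 194, 196 or 198, and without mouse 191 2 fell and 2 rose as sequenced. In other fits, 0 rose and 8 fell with scaling by library size, 0 rose and 9 fell with no filter on low counts and 0 rose and 2 fell with the fit of the 8 libraries alone as sequenced, and 0 rose and 8 fell with DESeq2, 0 rose and 12 fell with no filter on low counts and 0 rose and 2 fell with the fit of the 8 libraries alone with the trend removed. Rgs5 (chromosome 1, 169655501 to 169695813), a marker of pericytes, stood at 77.5, 73.5, 73.9 and 78.3 CPM at 5m and 54.2, 55.1, 54.1 and 52.4 CPM at 18m, and its log2 fold change of -0.49 ± 0.06 (SE, adjusted p = 0.00043) became -0.31 (adjusted p = 0.0078). Every 18m mouse lay below every 5m mouse, mouse 191 included, and Rgs5 passed without each mouse. Of 15 pericyte and smooth muscle genes tested, however, only 2 fell and none rose as sequenced, and 1 fell with the trend removed. The median of that list was -0.36 as sequenced and -0.04 without mouse 191. Cd93, a receptor of endothelium, stood at 25.7, 17.8, 14.8 and 13.4 CPM at 5m and 9.08, 8.41, 8.75 and 10.9 CPM at 18m (log2 fold change -0.94 ± 0.18 SE, adjusted p = 0.0042, and -0.72 at the least when 1 mouse was left out). Ly6a, a surface protein of brain endothelium, had -0.68 ± 0.19 (SE, adjusted p = 0.026) but did not pass without mouse 194, 196 or 197. Flt1, a receptor of VEGF, had -0.28 ± 0.08 (SE, adjusted p = 0.03) and did not pass without mouse 191, 192, 196 or 197. Myh11, the myosin of smooth muscle, stood at 94.0, 9.67, 17.1 and 13.3 CPM at 5m and 9.52, 7.06, 8.57 and 14.1 CPM at 18m, and its log2 fold change of -1.76 ± 0.54 (SE, adjusted p = 0.039) had an adjusted p above the threshold without mouse 191, 195, 196, 197 or 198, and without mouse 191 it was -0.46. Cldn5, the tight junction protein of brain endothelium, had 0.13 ± 0.16 (SE, adjusted p = 0.61) and passed without mouse 191, in the upward direction.

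**Figure D4:**
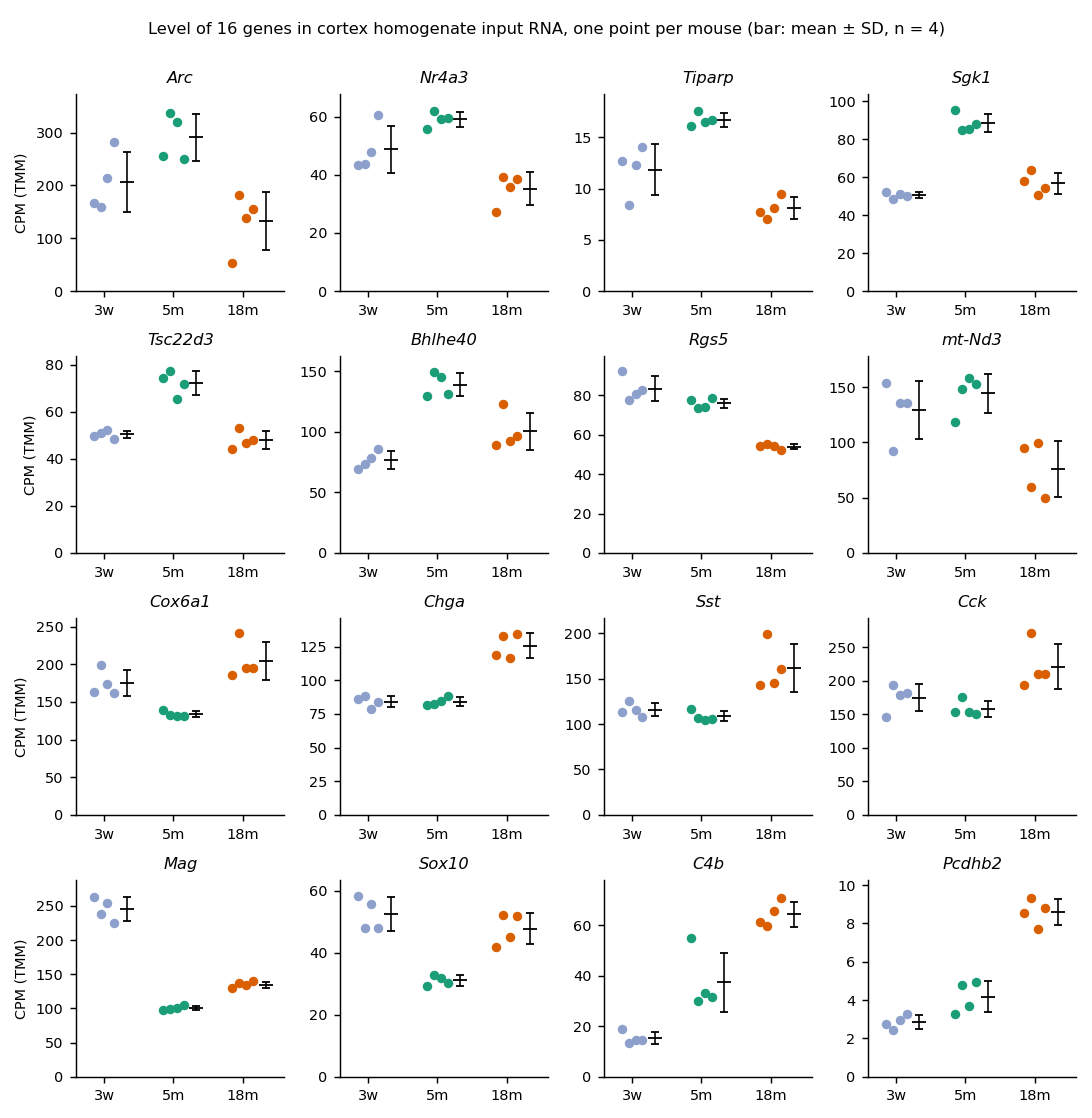
CPM (vertical axes, each from 0) of 16 genes in every input_TH mouse by age, 1 point per mouse, with the mean ± SD of 4 mice beside the points. The 18m points lie below all 5m points for Arc, Nr4a3, Tiparp, Sgk1, Tsc22d3, Bhlhe40, Rgs5 and mt-Nd3 and above all 5m points for Cox6a1, Chga, Sst, Cck, Mag, Sox10, C4b and Pcdhb2.

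Clustered protocadherins, the cell surface proteins by which neurons recognise themselves, rose in part. Of 54 tested, 16 rose and none fell as sequenced (median 0.22), and 12 rose and none fell with the trend removed (median 0.23). Pcdhb2 (chromosome 18, 37294812 to 37297624) stood at 3.29, 4.78, 3.71 and 4.92 CPM at 5m and 8.55, 9.34, 7.70 and 8.83 CPM at 18m, with a log2 fold change of 1.04 ± 0.14 (SE, adjusted p = 0.0011) that became 1.03 (adjusted p = 0.0019). Pcdhb9 had 9.31, 9.77, 8.24 and 8.81 CPM at 5m and 12.9, 13.1, 15.2 and 14.6 CPM at 18m (log2 fold change 0.63 ± 0.10 SE, adjusted p = 0.002), and Pcdhb7 had 0.85 ± 0.17 (SE, adjusted p = 0.0052). The ages did not overlap for these 3 genes and for 18 of the 54 in all, against 18.4% of all genes. Members of the cluster are similar in sequence and share exons within the alpha and gamma groups, so that their counts are not fully separate. The number that passed became 9 without mouse 196 or 198 and 10 without mouse 193 or 194 as sequenced. In the fit without the trend it became 5 without mouse 194, 6 without mouse 192 or 197 and 7 without mouse 198. Under other settings, 9 rose and 0 fell with scaling by library size as sequenced, and 7 rose and 0 fell with the fit of the 8 libraries alone with the trend removed.

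**Figure D5:**
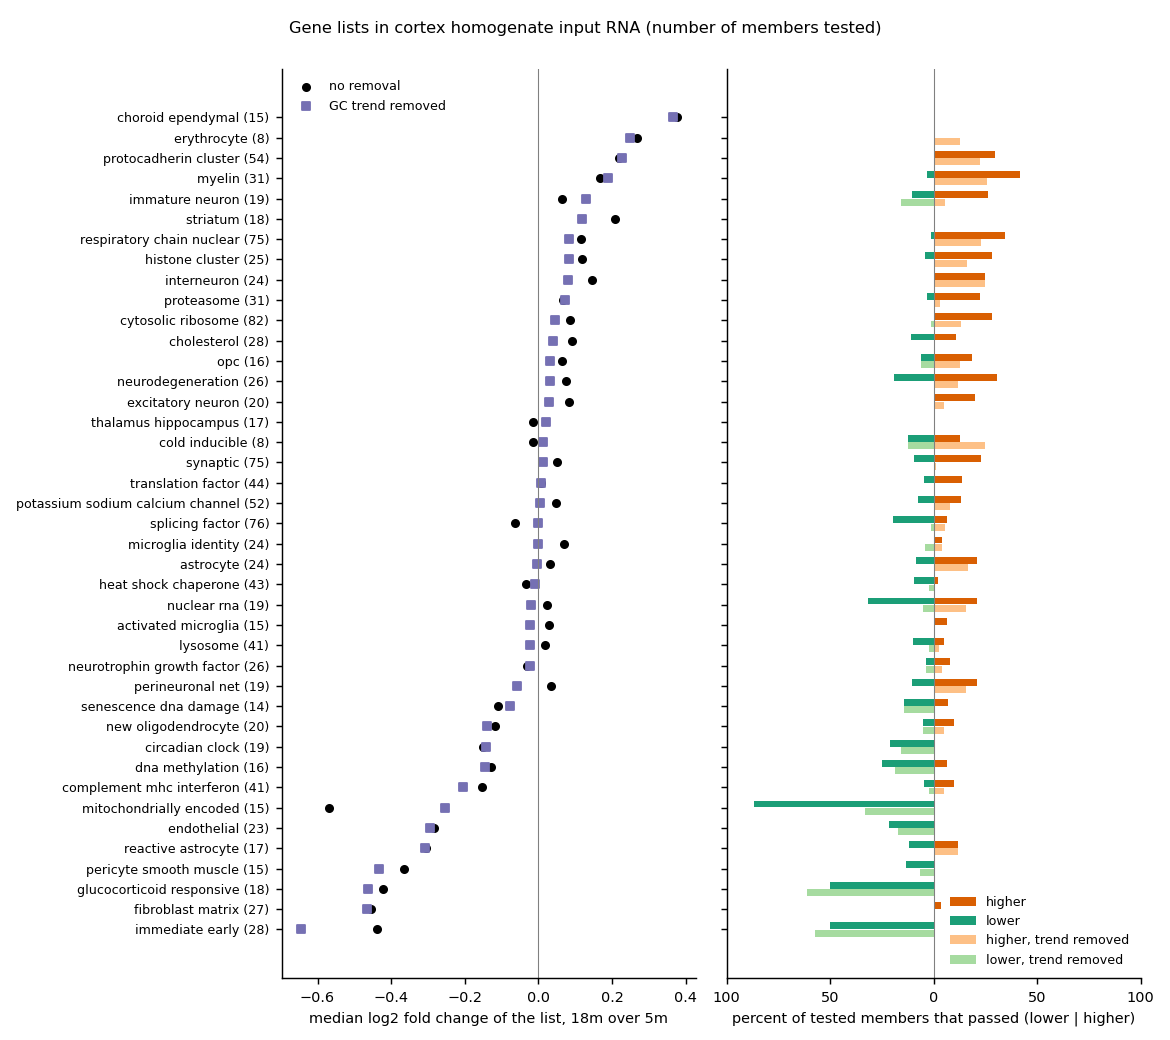
Left, median log2 fold change of 18m over 5m (horizontal axis) of each gene list as sequenced and with the GC trend removed; right, percent of its tested members that passed, drawn to the left for lower and to the right for higher. Immediate-early and glucocorticoid-responsive genes have the longest bars to the left of those drawn with the trend removed, at 16 of 28 and 11 of 18, and the bars of synaptic genes and splicing factors shrink to 1 of 75 and 5 of 76.

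Large changes are named here for genes that passed, with ages that did not overlap, at least 50 counts on average in the higher group and no predicted, clone or pseudogene name, so that some larger changes are left out. The 12 largest increases of this kind were all in genes with a mean under 10 CPM at 5m. Tnnt2 (chromosome 1, 135836354 to 135852260), the troponin T of heart muscle, stood at 2.45, 1.12, 2.06 and 2.85 CPM at 5m and 6.17, 5.29, 5.25 and 4.90 CPM at 18m, with a log2 fold change of 1.33 ± 0.21 (SE, adjusted p = 0.0021). Map3k21 (chromosome 8, 125910450 to 125947440), a kinase that acts upstream of the JNK pathway, stood at 2.82, 2.14, 2.97 and 2.85 CPM at 5m and 6.35, 5.29, 7.26 and 6.82 CPM at 18m (log2 fold change 1.25 ± 0.15 SE, adjusted p = 0.00072). Egf (chromosome 3, 129677565 to 129755316), the epidermal growth factor, had 2.45, 2.24, 2.23 and 2.59 CPM at 5m and 6.00, 4.36, 4.46 and 5.86 CPM at 18m (log2 fold change 1.12 ± 0.18 SE, adjusted p = 0.0022). These 3 kept their change with the trend removed, at 1.27 (adjusted p = 0.0042), 1.14 (adjusted p = 0.0017) and 1.15 (adjusted p = 0.0029). Pcdhb2 and Pcdhb7, above, were also among the 12 largest. Ppp1r3f, a regulatory subunit of protein phosphatase 1, rose from 8.51 ± 0.581 to 15.3 ± 1.59 CPM (SD, n = 4 each; log2 fold change 0.85 ± 0.11 SE, adjusted p = 0.00076). Ccdc88b, Col2a1, Spag6 and Tmem74b had log2 fold changes of 0.95, 0.91, 0.89 and 0.84 and passed both fits. Ccl21a, a chemokine, had 0.79 as sequenced and did not pass with the trend removed (adjusted p = 0.10), nor as sequenced without mouse 191, 193, 194, 196 or 197. It has near-identical copies in the genome. Chsy3, which elongates chondroitin sulphate, rose from 23 ± 1.92 to 32.3 ± 1.75 CPM with a log2 fold change of 0.49 ± 0.08 (SE, adjusted p = 0.0024), and 0.55 (adjusted p = 0.0028) with the trend removed.

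Among the largest decreases under the same conditions, Cdr1 stood at 1.98, 5.19, 22.5 and 9.59 CPM at 5m and 0.0882, 0.208, 0.350 and 0.262 CPM at 18m, with a log2 fold change of -5.39 ± 1.24 (SE, adjusted p = 0.01), and varied more than 10-fold between the 5m mice. Cdr1 lies at chromosome X, 61184005 to 61185558 (GRCm38), inside the long noncoding gene C230004F18Rik on the opposite strand, and the circular RNA known from this locus is antisense to Cdr1, so that counting without strand cannot assign these reads. C230004F18Rik itself had a log2 fold change of -0.47 (adjusted p = 0.003). Tnfrsf25, a death receptor of the tumour necrosis factor family, stood at 19.4, 27.1, 23.9 and 20.8 CPM at 5m and 4.94, 11.5, 9.88 and 15.04 CPM at 18m (log2 fold change -1.14 ± 0.21 SE, adjusted p = 0.0038, and -1.35, adjusted p = 0.0027 with the trend removed). Ccdc107 (chromosome 4, 43492900 to 43495921) fell by 1.11 on the log2 scale (adjusted p = 0.0059), but its first bases overlap those of Rmrp on the opposite strand, an abundant RNA whose level was 1527 CPM at 5m and 1616 CPM at 18m, so that its count is uncertain. Baz1a, of chromatin remodelling complexes, had 7.06, 4.17, 4.53 and 5.18 CPM at 5m and 2.205, 3.74, 2.27 and 2.54 CPM at 18m (log2 fold change -0.97 ± 0.20 SE, adjusted p = 0.0058). Arc, Egr2, Tiparp, Cd93 and the mitochondrial genes mt-Ti, mt-Atp8, mt-Rnr2 and mt-Nd3 complete the 12 largest of this kind, which leave out genes with overlapping ages such as Myh11.

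Ccnd2, the cyclin D2 of dividing precursors, Ier5l, of the immediate-early response family, and Pxdn, a peroxidase of the basement membrane, had the smallest p-values with the trend removed among ranked genes that fell in both fits, after Sgk1 and Tsc22d3. Ccnd2 stood at 122, 126, 135 and 113 CPM at 5m and 68.2, 93.3, 83.7 and 82.0 CPM at 18m, with a log2 fold change of -0.60 ± 0.08 (SE, adjusted p = 0.00076), and -0.61 (adjusted p = 0.0011) with the trend removed. Ier5l went from -0.58 ± 0.10 (SE, adjusted p = 0.0037) to -0.88 (adjusted p = 0.0011) and Pxdn from -0.36 ± 0.05 (SE, adjusted p = 0.0012) to -0.40 (adjusted p = 0.0011). Ages that did not overlap were a condition for this ranking, as were at least 50 counts on average in the higher group.

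By annotation class, 1311 of 14100 protein-coding genes rose and 1066 fell as sequenced, and 392 and 364 with the trend removed. Of 1262 genes of the class TEC, gene models that still await experimental proof, 13 rose and 159 fell as sequenced, and 21 and 23 with the trend removed; their median GC content was 41.2%. Of 968 processed pseudogenes 69 rose and 6 fell, and 15 and 4 with the trend removed. Among small nuclear RNAs, 10 of 40 rose and none fell as sequenced, and 9 rose and none fell with the trend removed. Rnu2-10, a copy of the U2 RNA of the spliceosome, stood at 141, 119.8, 114 and 143 CPM at 5m and 165, 198.7, 191 and 208 CPM at 18m (log2 fold change 0.56 ± 0.09 SE, adjusted p = 0.002). Its copies are near-identical, so that the members that passed may count the same reads.

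The same age contrast was measured in other fractions of the same mice, and the difference between the changes was tested as an interaction. In the ribosome pellets SC_TH, 356 of 16427 genes passed (2.17%, of all genes 0.377% higher and 1.79% lower). In synaptosome input 18 of 12975 passed (0.139%, with 0.0308% higher and 0.108% lower). Of the immediate-early genes 12 passed in the pellets, with a list median of -0.62, and only 1 in input_SYN, with a median of -0.50. Of the glucocorticoid-responsive genes 3 passed in SC_TH and 1 in input_SYN, and of the complement, MHC and interferon genes 4 and 1. Arc had log2 fold changes of -1.60 (adjusted p = 0.011) in SC_TH and -1.80 (adjusted p = 0.011) in input_SYN. Tsc22d3 had -0.50 (adjusted p = 0.0094) and -0.73 (adjusted p = 0.011), and C4b 0.93 (adjusted p = 0.0018) and 0.95 (adjusted p = 0.001). None of these 3 differed between the fractions at the threshold. Chga had 0.05 (adjusted p = 0.85) in SC_TH, and its change there differed from that in input_TH by -0.53 (adjusted p = 0.028). Sgk1, with -0.32 (adjusted p = 0.16) in SC_TH, did not pass there, and the difference from input_TH was 0.32 (adjusted p = 0.22).

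Between input_SYN and input_TH the change with age differed in 432 of 17860 genes (2.42%, with 1.01% more positive and 1.41% more negative in input_SYN), in 661 with the mouse as a block, and in 34 with the trend removed (0.191%). Without mouse 192, 193, 194, 195 or 196 in either fraction the number without a block was 73, 153, 144, 269 and 281. Among genes whose change was more positive in input_SYN, Ccnt2 (a cyclin of transcription elongation), Tax1bp1 (an autophagy receptor), Fam208b, Rb1cc1 (a scaffold that starts autophagy) and Nfat5 (a transcription factor of osmotic stress) had the smallest p-values, with differences of 0.97, 0.80, 0.97, 0.68 and 0.71 on the log2 scale. In input_TH these 5 fell, by 0.34, 0.40, 0.31, 0.28 and 0.28, and none of them passed there with the trend removed, when the value of Rb1cc1 turned to 0.02 (adjusted p = 0.84). On the negative side Rnu2-10, Brsk1 (a kinase of presynaptic terminals), Stmn3 (a microtubule regulator), Jph3 (a junctophilin of neurons) and Cspg5 (a brain proteoglycan) had differences of -1.78, -0.84, -0.64, -0.60 and -0.61, and in input_TH they rose, by 0.56, 0.43, 0.38, 0.36 and 0.43. Rnu2-10 had -1.23 (adjusted p = 0.0047) in input_SYN and kept its difference with the trend removed (-1.90, adjusted p = 4.7e-07).

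Between SC_TH and input_TH the change differed in 328 of 18416 genes (1.78%, with 0.608% more positive and 1.17% more negative in SC_TH), and in 190 with the trend removed (1.04%), 140 of them in both fits. Without mouse 191, 192, 193, 194, 195, 196, 197 or 198 in either fraction the number was 1282, 96, 33, 69, 611, 77, 60 and 54. More positive in SC_TH were Ppp6c (a phosphatase), Sdcbp (the adaptor syntenin), Elavl1 (an RNA-binding protein), Atf2 (a transcription factor) and Necab1 (a calcium-binding protein of neurons), with differences of 0.79, 0.59, 0.49, 0.45 and 0.57. The input_TH value of Atf2 turned from -0.22 to 0.10 (adjusted p = 0.29) with the trend removed. More negative were Col11a1 (a fibrillar collagen), Gigyf1 (a repressor of translation), Snrnp70 (of the U1 particle), Eif4g1 (a scaffold of translation initiation) and Tspoap1 (of presynaptic active zones), with -1.33, -0.61, -0.57, -0.51 and -0.72. Col11a1 had log2 fold changes of 0.24 in input_TH and -1.09 (adjusted p = 0.019) in SC_TH.

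Mitochondrially encoded genes were among those that differed, with 7 of 15 between SC_TH and input_TH and 2 with the trend removed, and a median difference of 1.09. mt-Nd3 had a log2 fold change of 0.77 (adjusted p = 0.23) in SC_TH, a difference from input_TH of 1.67 (adjusted p = 0.027). mt-Nd2 and mt-Rnr2 differed by 1.21 and 1.55 (adjusted p = 0.038 and 0.027).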

How the data were processed

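The authors prepared stranded, rRNA-depleted libraries with UMI adaptors, aligned reads with TopHat2 (version 2.1) to GRCm38 and used featureCounts to count them per gene, ignoring strand, which gave the deposited raw counts. Whether UMIs were used to remove duplicates is not given in the sources used here. Totals of the 8 libraries were 9699909 to 11909098. Genes were tested with edgeR (version 4.0.16, R 4.3.3) by TMM scaling, filterByExpr and the quasi-likelihood test over the 12 input_TH libraries of 3w, 5m and 18m, with the contrast 18m minus 5m and Benjamini-Hochberg adjustment. Exonic GC content was taken from the union of exons in GENCODE vM21 on GRCm38; identifiers outside it held 0.0596% of counts. The GC trend was a loess curve (span 0.5) of each library's log2 CPM (prior count 2), taken as the deviation from the gene's mean, on GC content, and was added to the offsets. Interactions with input_SYN and SC_TH were fitted over 24 libraries. The sample labels give the fractions of a mouse the same number, but the main interaction fits did not use this pairing. The mouse was a block only in an alternative fit. The SC_SYN counts were used for GC slopes and in the fit of all 48 libraries. The scripts were tested on simulated counts.

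The gene lists and the genes named were chosen with earlier results of these data known. The rule named up to 4 members of each list by p-value, cell type markers, and, among genes whose higher group averaged 50 counts or more, with no predicted, clone or pseudogene name, the 12 largest changes in each direction, the 5 of smallest p that passed with and without the GC trend, the 5 of smallest p that passed only as sequenced (all 3 with ages that did not overlap) and the 5 of smallest p in each interaction. Some genes that the rule names are not reported here. Alternatives were DESeq2 (version 1.42.0), other scalings, filters, trends and sets of libraries, and leaving out each mouse.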

Additional observations from a re-analysis of the deposited data

Results flagged for a closer look

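A pair of libraries stood far from the others of their age in several values. The gap between the most distant library and its nearest neighbour, as a share of the range of the 4 libraries, was compared with Dixon's 95% critical value. This was exceeded in 21 of 260 groups of 4 libraries, where chance alone gives 1 in 20 or about 13. The groups reuse the same libraries, and summed lists are counted beside single genes of the same cell types. They are therefore not independent, and 21 against 13 is no test. Mouse 191 of 5m stood out by its GC slope, with a share of 0.942, by the summed level of pericyte and smooth muscle genes (0.906), fibroblast and matrix genes (0.972), choroid plexus and ependyma genes (0.901) and endothelial genes (0.948), and by higher levels of Nfkbia (0.88), C4b (0.886), Myh11 (0.911), Acta2 (0.943), Cox6a1 (0.849), Fau (0.905), Ttr (0.906), Folr1 (0.905) and Col11a1 (0.856) and lower levels of Rb1cc1 (0.924) and Atf2 (0.892). Mouse 192 stood out by Cck (0.845). Among the 18m mice, 195 stood out by the summed level of choroid plexus and ependyma genes (0.967), by Ttr (0.972) and by Folr1 (0.907), and 196 by Ndufa8 (0.842).

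The change from 5m to 18m differed between input_SYN and input_TH in 432 genes and between SC_TH and input_TH in 328, by the interaction test. With the GC trend removed it differed in 34 and 190 genes, of which 31 and 140 passed with and without removal. The differences below are from the fits without removal, so many of them may not hold once the trend is taken out. Among the genes named here, the change was more positive in input_SYN by 0.68 for Fubp1, 0.62 for Smg1, 1.08 for mt-Ti, 0.97 for Ccnt2, 0.80 for Tax1bp1, 0.97 for Fam208b, 0.68 for Rb1cc1, 0.71 for Nfat5, 0.47 for Elavl1, 0.50 for Atf2 and 0.73 for Necab1 on the log2 scale. It was more negative in input_SYN by -0.66 for Vstm2l, -0.80 for Begain, -0.61 for Ppp1r9b, -0.57 for Hcn2, -0.47 for Qdpr, -0.74 for Olig1, -0.43 for Slc17a7, -0.40 for Cox4i1, -0.70 for Fau, -0.66 for Rps2, -1.02 for Ppp1r3f, -0.68 for Chsy3, -1.78 for Rnu2-10, -0.84 for Brsk1, -0.64 for Stmn3, -0.60 for Jph3, -0.61 for Cspg5, -1.003 for Col11a1, -0.56 for Gigyf1 and -0.56 for Tspoap1. Between SC_TH and input_TH the difference was positive at 0.50 for Tra2b, 0.51 for Lrrtm2, 1.67 for mt-Nd3, 1.21 for mt-Nd2, 1.55 for mt-Rnr2, 1.73 for Ccdc107, 0.51 for Tax1bp1, 0.79 for Ppp6c, 0.59 for Sdcbp, 0.49 for Elavl1, 0.45 for Atf2 and 0.57 for Necab1, and negative at -0.66 for Cep131, -0.61 for Ppp1r9b, -1.19 for Tnnt2, -0.81 for Ppp1r3f, -0.53 for Chga, -0.54 for Chsy3, -1.59 for Rnu2-10, -0.40 for Brsk1, -0.44 for Jph3, -0.40 for Cspg5, -1.33 for Col11a1, -0.61 for Gigyf1, -0.57 for Snrnp70, -0.51 for Eif4g1 and -0.71 for Tspoap1.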

How the results depend on the processing

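The number of genes that passed was 894 with the GC trend removed, 865 with a length trend removed as well and 183 when all 48 libraries shared 1 estimate of the spread, and 1404 to 3389 when 1 mouse was left out. With the GC trend removed it was 503 in a fit of the 8 libraries alone and 436 to 1209 without 1 mouse. The number that passed both fits was 1052 without a filter on low counts, 371 in the 8 libraries alone and 319 to 801 without 1 mouse. The difference in GC slope was 0.185 to 0.248 without 1 mouse, where the exact permutation test gives p = 0.0571 for 4 against 3 mice, the smallest it can give. In the fit of all 48 libraries at most 5 members of any list passed. The other counts kept within 1.5 times, among them 2674 genes by DESeq2 and 2114 in the 8 libraries alone.

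No paired analysis was possible because the 5m and 18m mice are different animals. For the interactions, where each mouse gave both fractions, the replicate block raised the number of genes that passed for input_SYN from 432 to 661, and from 34 to 51 with the GC trend removed. For SC_TH the block gave 374, against 328 without it. DESeq2 gave 1109 and 752, removal of the GC trend gave 190 for SC_TH, and no filter on low counts gave 573 for SC_TH. Leaving out 1 mouse gave 73 to 381 and 33 to 1282.

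Of 100 named genes that passed as sequenced, 87 passed without each mouse, 32 did not pass with the GC trend removed and 61 did not pass in the fit of all 48 libraries. Only Rb1cc1 and Atf2 changed direction, to 0.020 and 0.10 with the GC trend removed and to 0.025 and 0.10 with both trends removed, among the alternatives run. The cause of these moves was not tested. Scaling by library size turned the sign of the medians of 8 lists, those of activated microglia, astrocytes, lysosome, nuclear RNAs, perineuronal nets, ion channels, synapse and translation factors, each at most 0.05 from 0 on the log2 scale in both scalings, and that of translation factors turned with DESeq2 size factors too.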

Other observations

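Other gene lists gave counts that moved by more than 1.5 times when 1 mouse was left out, and the values that follow are as sequenced. Of 31 proteasome genes 7 rose and 1 fell, and the number that passed ran from 3 without mouse 196 to 11 without mouse 195. Of 25 clustered histone genes, which are near-identical in part, 7 rose and 1 fell, and the number that passed ran from 4 without mouse 193 to 10 without mouse 191. Of 44 translation factors 6 rose and 2 fell, and the number that passed ran from 3 without mouse 194 or 198 to 12 without mouse 195. Of 52 ion channel genes 7 rose and 4 fell, and the number that passed ran from 5 without mouse 196 to 16 without mouse 191 or 195. Of 26 genes linked to neurodegenerative disease 8 rose and 5 fell, and the number that passed ran from 5 without mouse 198 to 14 without mouse 195. Of 19 genes of immature neurons 5 rose and 2 fell, and the number that passed ran from 3 without mouse 196 to 8 without mouse 195. Of 41 lysosomal genes 2 rose and 4 fell, and the number that passed ran from 2 without mouse 196 to 13 without mouse 191. Of 28 genes of cholesterol synthesis 3 rose and 3 fell, and the number that passed ran from 3 without mouse 192, 196 or 198 to 11 without mouse 191. Of 43 chaperones 1 rose and 4 fell, and the number that passed ran from 2 without mouse 192, 194, 196 or 198 to 8 without mouse 191. With scaling by library size the numbers that rose and fell were 3 and 4 for translation factors, 6 and 9 for ion channel genes, 4 and 5 for genes linked to neurodegenerative disease and 1 and 8 for chaperones. With the GC trend removed the numbers that passed in these lists, in the same order, were 1, 4, 0, 4, 3, 4, 2, 0 and 1, and they ran from 0 to 6 over the lists when 1 mouse was left out.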
